A study of Homo sapiens with 10 samples.

Results

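The YAP, TAZ and Hippo pathway genes described here are 10 rows of the deposited expression table, taken by gene name from its 58735 genes. They are the coactivators YAP1 and WWTR1 (the gene of TAZ), their DNA-binding partner TEAD1, the kinases LATS1 and LATS2, the upstream scaffold WWC1, the binding proteins AJUBA and AMOTL2, and the target genes CRIM1 and ANKRD1. RNA had been sequenced from TPC-1, an established papillary thyroid carcinoma line, in 5 groups of 2 libraries, all of which carry a CCDC6-RET fusion. BR8, BR10 and BR16 are 3 colonies that grew out of TPC-1 cells kept in 5 µM BLU667 (pralsetinib, a drug that blocks RET kinase activity), for more than 50 days by the sample labels and more than 5 months by the series design. The BLU667 group is parental TPC-1 given 5 µM of the inhibitor for 24 h, and the DMSO group is parental TPC-1 given the solvent for 24 h. Each of BR8, BR10 and BR16 is 1 colony, so that long exposure and the descent of that colony cannot be told apart within it.

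The Hippo pathway is a kinase cascade that restrains growth in dense or confined epithelia. Its terminal kinases, LATS1 and LATS2, phosphorylate YAP and TAZ and keep them in the cytoplasm, whereas unphosphorylated YAP and TAZ enter the nucleus and work through TEAD factors. Several TEAD targets, among them LATS2 and AMOTL2, encode inhibitors of YAP and TAZ and so form negative feedback. RNA levels do not show the phosphorylation or the location of these proteins.

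Promoter sequences are shown for ANKRD1, AMOTL2 and LATS2, the genes of the set that are known TEAD targets and whose window holds the TEAD core motif GGAATG (or CATTCC on the other strand). Each runs 5′ to 3′ on the gene's own strand from 250 bases before to 50 bases after a RefSeq start (GRCh38.p14), with matches in capitals. The ANKRD1 window is chr10:90921038-90921337 on the minus strand, and it holds GGAATG at 220 and 128 bases before the start and the AP-1 motif TGANTCA, whose reverse complement is the same motif, at 195 bases before it. The AMOTL2 window shown is chr3:134374398-134374697 on the minus strand, around a start 1032 bases inside the deposited gene. It holds CATTCC at 69 bases before that start. The other AMOTL2 window, around a start 62 bases inside the deposited gene, holds neither motif. The LATS2 window is chr13:21061537-21061836 on the minus strand, with GGAATG at 9 bases after the start.
ANKRD1: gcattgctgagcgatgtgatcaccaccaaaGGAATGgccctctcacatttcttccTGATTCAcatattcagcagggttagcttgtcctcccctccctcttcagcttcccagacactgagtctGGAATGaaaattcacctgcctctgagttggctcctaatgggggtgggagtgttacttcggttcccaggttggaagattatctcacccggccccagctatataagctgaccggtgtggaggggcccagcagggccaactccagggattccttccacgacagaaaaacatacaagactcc
AMOTL2: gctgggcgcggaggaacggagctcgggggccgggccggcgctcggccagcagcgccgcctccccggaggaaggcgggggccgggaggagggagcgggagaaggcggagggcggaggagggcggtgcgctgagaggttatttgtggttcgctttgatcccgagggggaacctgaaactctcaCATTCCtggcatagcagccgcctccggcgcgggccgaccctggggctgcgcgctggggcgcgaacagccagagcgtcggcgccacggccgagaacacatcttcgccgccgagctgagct
LATS2: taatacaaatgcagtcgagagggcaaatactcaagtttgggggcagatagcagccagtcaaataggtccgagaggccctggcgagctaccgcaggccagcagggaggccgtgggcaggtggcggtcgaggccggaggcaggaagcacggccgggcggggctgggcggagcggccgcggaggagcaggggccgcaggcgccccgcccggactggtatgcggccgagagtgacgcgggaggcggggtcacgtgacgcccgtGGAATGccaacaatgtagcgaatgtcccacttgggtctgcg
Of 35116 RefSeq windows of the same length, 14.0% held GGAATG or CATTCC and 7.71% held TGANTCA. The table matched 8 of the 10 genes with 12 windows, of which 5 held GGAATG or CATTCC and 2 held TGANTCA; CRIM1 and TEAD1 had no entry. YAP1 itself held GGAATG at 162 bases before its start. AJUBA held it at 59 bases before a start 5800 bases inside the deposited gene, and its other window did not hold it. No match overlapped another, and a match is a string of letters, not a measured binding site.

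Values are deposited FPKM, which scale fragments by gene length and by library size. Totals over genes ran from 15243703 to 21904245 reads. Genes with at least 1 FPKM in at least 2 libraries (13927) were fitted together with limma on log2(FPKM + 1), and a gene was called where its Benjamini-Hochberg adjusted p was below 0.05. Log2 changes are given ± SE of that fit and understate the change of low genes. Replicates correlated across genes at r = 0.978 in DMSO and up to 0.989 in BR16. Some differences between libraries tracked transcript GC: the Spearman coefficient over tested genes was 0.608 for the first over the second DMSO library, -0.601 for BR8 over BR16 and -0.526 for BR10 over BR16. Mean transcript GC ranged from 43.3% for ANKRD1 to 59.3% for LATS2 and 63.1% for AMOTL2. The thyroid factor PAX8 stood at 35.3 to 94.7 FPKM over the 10 libraries, FOXE1 at 2.04 to 4.17 and HHEX at 1.14 to 4.90 FPKM, and the keratins KRT8 and KRT18 at 17.2 to 69.0 and 9.36 to 40.5 FPKM. Some defining thyroid and epithelial markers were near absent: TG reached 0.230 FPKM at most, EPCAM 0.196, CDH1 0.1004 and KRT19 0.316. The leukocyte gene PTPRC reached 0.0207 FPKM. Of 5 fibroblast markers, COL1A2 and DCN were at 0 in every library, whereas COL1A1 reached 2.23, LUM 6.43 and PDGFRB 15.4 FPKM, and their part in any result was not tested. Since RNA was taken from whole cultures, fewer cells of a type and less RNA per cell cannot be told apart.

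All 10 genes passed the filter, ANKRD1 only through its BR8 and BR16 libraries, so that its calls in the counts below are a description. After 24 h of BLU667, WWTR1, TEAD1, LATS2, WWC1, AJUBA, AMOTL2 and CRIM1 were called higher than in DMSO (7 of 10), and none was called lower; of all tested genes, 60.2% were called in this comparison, 29.0% higher and 31.2% lower. The median log2 change of the 10 genes was 1.01, against -0.01 over all tested genes. In the colonies, WWTR1, LATS2, WWC1, AJUBA, AMOTL2 and CRIM1 were called higher than in DMSO in each of BR8, BR10 and BR16. Of the 10 genes, 8 were called in BR8 (7 higher, 1 lower), where 51.3% of all tested genes were called, 24.0% higher and 27.3% lower. In BR10, 7 were called (6 higher, 1 lower; all tested genes 40.8%, 19.2% higher and 21.5% lower), and in BR16, 9 (7 higher, 2 lower; all tested genes 45.5%, 21.9% higher and 23.6% lower). The medians were 0.62, 0.57 and 0.95 against DMSO, where all tested genes had medians of -0.03, -0.01 and -0.01.

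Set against 24 h of BLU667, more of the 10 genes were called lower than higher in each colony. In BR8, 2 were called higher and 6 lower (all tested genes 57.4%, 30.0% higher and 27.4% lower). In BR10, 1 was called higher and 7 lower (all tested genes 53.6%, 27.9% higher and 25.6% lower). In BR16, 2 were called higher and 4 lower (all tested genes 58.7%, 32.1% higher and 26.7% lower). WWC1 was the one gene called higher than BLU667 in all 3 colonies, and YAP1, LATS2 and TEAD1 were called lower in all 3. The comparisons share their DMSO or BLU667 libraries and are not independent of each other. As a mean of the 3 colonies, 7 of the 10 were called higher and 2 lower than DMSO (all tested genes 49.2%, 22.9% higher and 26.3% lower), and 2 higher and 6 lower than BLU667 (all tested genes 61.1%, 32.4% higher and 28.7% lower). Taking the 3 colony means as replicates left 3 called against DMSO (WWC1, AMOTL2 and CRIM1) and 4 against BLU667 (WWC1, YAP1, LATS2 and TEAD1), where the same fit called 11.1% and 26.3% of all tested genes.

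Between colonies, 5 of the 10 genes were called in each pair. BR8 was higher than BR10 in 4 (LATS1, WWC1, CRIM1 and ANKRD1) and lower in LATS2, where 22.8% of all tested genes were called, 11.3% higher and 11.5% lower. BR8 was higher than BR16 in LATS1 and lower in 4 (LATS2, WWC1, AJUBA and AMOTL2; all tested genes 48.6%, 24.1% higher and 24.5% lower). BR10 was lower than BR16 in 5 (LATS1, WWC1, AJUBA, CRIM1 and ANKRD1) and higher in none (all tested genes 43.1%, 21.1% higher and 22.0% lower). The CRIM1 difference between BR8 and BR10 (0.32, adjusted p = 0.0185) was lost without any 1 library of that pair. That of LATS1 between BR8 and BR16 (0.42, adjusted p = 0.0159) was lost without BR16 replicate 1, BR16 replicate 2 or BR8 replicate 2. This LATS1 difference stayed called in 17 of 21 alternatives and was as low as 0.20, in a pair whose differences tracked transcript GC.

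**Figure D1:**
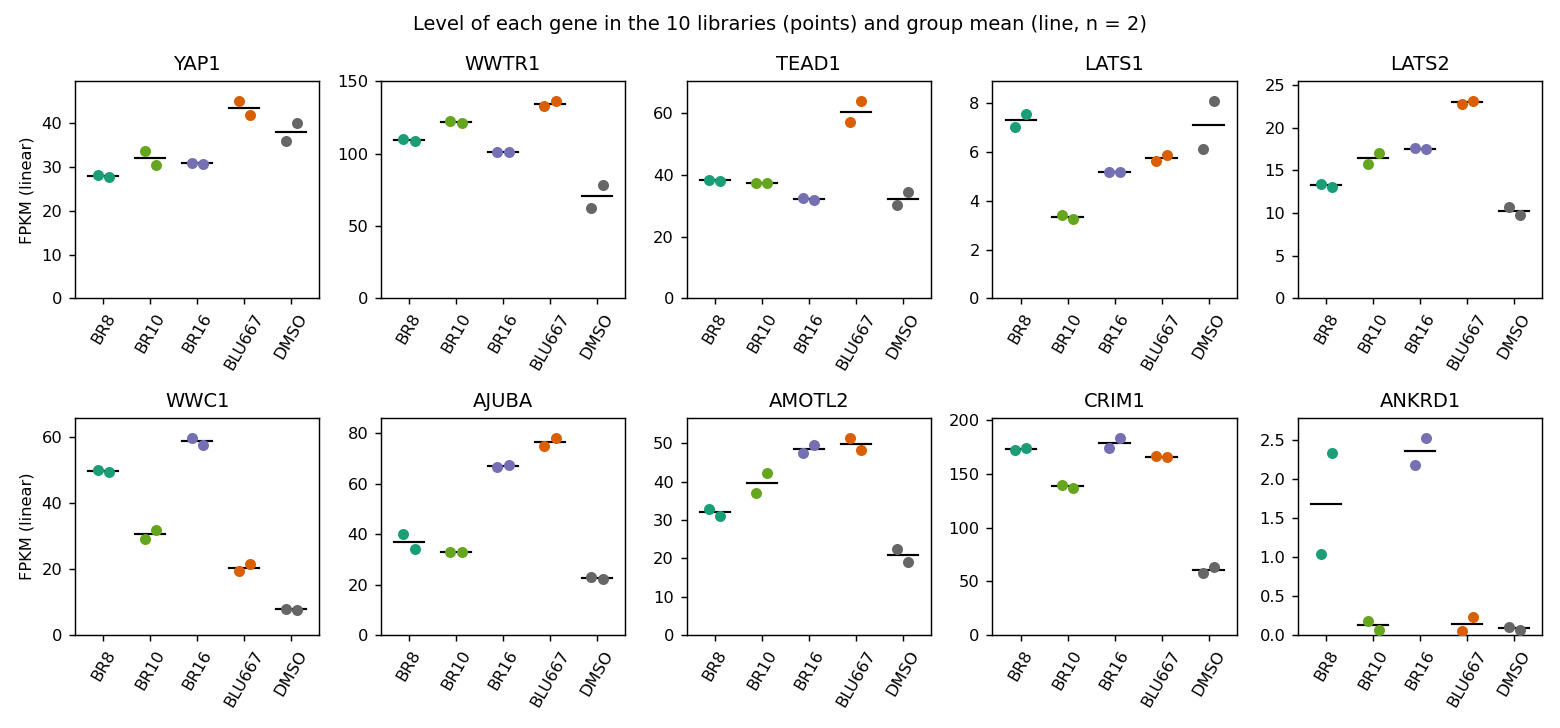
Level of each of the 10 genes in FPKM (linear axes from 0) in the 2 libraries of BR8, BR10, BR16, BLU667 and DMSO; points are libraries and lines are group means. CRIM1, WWC1 and AMOTL2 lie above DMSO in every exposed library, TEAD1 stands out in BLU667, and ANKRD1 reaches 1 FPKM only in BR8 and BR16.

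YAP1 (ENSG00000137693, GRCh38 chromosome 11, 102110461 to 102233423, plus strand) encodes the coactivator YAP. It had 28.3 and 27.7 FPKM in BR8, 33.6 and 30.4 in BR10, 31.0 and 30.7 in BR16, 45.1 and 41.9 in BLU667, and 36.0 and 40.0 in DMSO. The 6 colony libraries were the lowest and the BLU667 pair the highest, without overlap. Against DMSO, YAP1 fell by 0.43 ± 0.086 on the log2 scale in BR8 (adjusted p = 0.00369) and by 0.29 ± 0.086 in BR16 (adjusted p = 0.0246), while BR10 was not called (-0.24 ± 0.086, adjusted p = 0.0546) and neither was BLU667 (0.19 ± 0.086, adjusted p = 0.0825). Against BLU667 it fell by 0.62, 0.43 and 0.48 in BR8, BR10 and BR16 (adjusted p = 0.000398, 0.00318 and 0.00158). No pair of neighbours in the order BLU667, DMSO, BR10, BR16, BR8 was called different. The BR16 call against DMSO was lost without DMSO replicate 2 (-0.21, adjusted p = 0.0839) or without BR16 replicate 2 (-0.28, adjusted p = 0.117) or replicate 1 (-0.30, adjusted p = 0.0971), and BR10 was called without DMSO replicate 1 (-0.31, adjusted p = 0.0245) and with the GC trend removed (-0.35, adjusted p = 0.00498). The BLU667 rise was called without DMSO replicate 2 (0.27, adjusted p = 0.0284) and, over the other alternatives, most strongly with quantile normalization (0.41, adjusted p = 0.0052).

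WWTR1 (ENSG00000018408, chromosome 3, 149517235 to 149736714, minus strand), the gene of TAZ, moved differently. Its libraries held 110 and 109 FPKM in BR8, 123 and 121 in BR10, 101 and 101 in BR16, 133 and 137 in BLU667, and 62.6 and 78.5 in DMSO. Every exposed library stood above both DMSO libraries, which were also the least alike pair. WWTR1 rose over DMSO by 0.63 ± 0.10 in BR8 (adjusted p = 0.00126), 0.79 ± 0.10 in BR10 (adjusted p = 0.000676), 0.52 ± 0.10 in BR16 (adjusted p = 0.00403) and 0.93 ± 0.10 in BLU667 (adjusted p = 0.000104). Relative to BLU667 it was lower in BR8 (-0.30, adjusted p = 0.0375) and BR16 (-0.41, adjusted p = 0.00942), and BR10 was not called (-0.14, adjusted p = 0.276). In the order BLU667, BR10, BR8, BR16, DMSO, only the last step was called. The BR8 difference from BLU667 was lost when any library outside DMSO was left out (adjusted p = 0.126 without BLU667 replicate 2), and that of BR16 without BR16 replicate 1 (adjusted p = 0.0505), while BR10 was called below BLU667 without DMSO replicate 1 (-0.14, adjusted p = 0.0477) or replicate 2 (adjusted p = 0.0485). The antisense gene WWTR1-AS1, RNU6-1098P and WWTR1-IT1 overlap WWTR1, with at most 3.75 FPKM as a group mean, and this library type does not keep strand.

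WWTR1 exceeded YAP1 per unit length in all 10 libraries. The ratio of WWTR1 to YAP1 was 3.90 and 3.92 in BR8, 3.64 and 3.99 in BR10, 3.25 and 3.30 in BR16, 2.94 and 3.26 in BLU667, and 1.74 and 1.96 in DMSO. All 8 exposed libraries lay above both DMSO libraries. Means were 3.91 ± 0.017, 3.82 ± 0.24, 3.28 ± 0.037 and 3.10 ± 0.22 in BR8, BR10, BR16 and BLU667, and 1.85 ± 0.16 in DMSO (SD, n = 2 each). No test was made of this ratio.

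**Figure D2:**
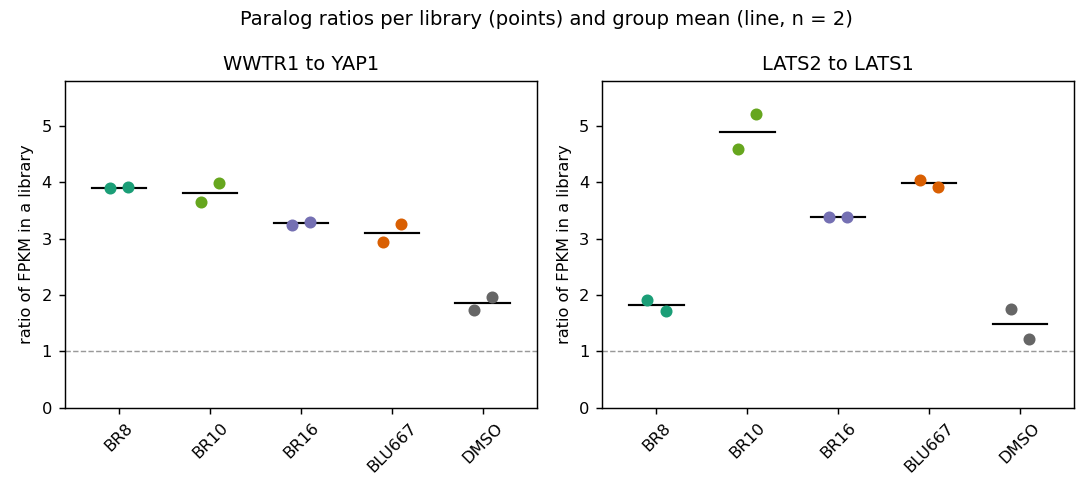
Ratio of the FPKM of WWTR1 to YAP1 (left) and LATS2 to LATS1 (right) in each library (points) with group means (lines, n = 2); axes are linear from 0 and the dashed line marks a ratio of 1. WWTR1 to YAP1 is at least 2.94 in every exposed library and at most 1.96 in DMSO. LATS2 to LATS1 is near the DMSO level in BR8 alone among the exposed groups, in values not corrected for the GC trend between libraries.

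TEAD1 (ENSG00000187079, chromosome 11, 12674591 to 12944483, plus strand) encodes the factor that brings YAP and TAZ to DNA. Its level was 38.3 and 37.9 FPKM in BR8, 37.2 and 37.4 in BR10, 32.4 and 31.9 in BR16, 56.8 and 63.8 in BLU667, and 30.05 and 34.5 in DMSO. The BLU667 libraries stood apart, and BR16 lay within the DMSO range. TEAD1 rose in BLU667 (0.88 ± 0.089, adjusted p = 6.06e-05) and was not called against DMSO in BR8 (0.24 ± 0.089, adjusted p = 0.0553), BR10 (0.21 ± 0.089, adjusted p = 0.0993) or BR16 (0.00 ± 0.089, adjusted p = 0.998). Against BLU667 it fell by 0.65, 0.68 and 0.88 in BR8, BR10 and BR16 (adjusted p = 0.000397, 0.000378 and 8e-05). In the order BLU667, BR8, BR10, DMSO, BR16, only the first step was called. Without DMSO replicate 2, TEAD1 was called above DMSO in BR8 (0.33, adjusted p = 0.0123) and BR10 (0.30, adjusted p = 0.0226), and the sign in BR16, near 0, turned under several settings.

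The other TEAD genes moved in both directions. TEAD2 averaged 18.2 ± 0.35 FPKM in BLU667 and 12.04 ± 2.3 in DMSO (SD, n = 2 each) and rose (0.57 ± 0.13, adjusted p = 0.00624). TEAD4 fell to 4.52 ± 0.059 FPKM in BLU667, against 11.7 ± 3.1 in DMSO (-1.18 ± 0.15, adjusted p = 0.000256). TEAD3 was lower, at 2.76 ± 0.025 FPKM in BLU667 and 4.49 ± 1.3 in DMSO (-0.53 ± 0.18, adjusted p = 0.035), a call lost without DMSO replicate 1 (-0.28, adjusted p = 0.207) or without BLU667 replicate 1 (adjusted p = 0.105) or replicate 2 (adjusted p = 0.101). In the mean of the colonies against DMSO, TEAD4 fell by 0.54 ± 0.13 (adjusted p = 0.00798; adjusted p = 0.16 with colony means as replicates), and TEAD2 (-0.12, adjusted p = 0.402; -0.30 and adjusted p = 0.0477 without DMSO replicate 2) and TEAD3 (-0.11, adjusted p = 0.556) were not called. The colonies differed here: BR8 was lower than DMSO in TEAD2 (-0.63, adjusted p = 0.00466), TEAD3 (-0.53, adjusted p = 0.0392) and TEAD4 (-0.81, adjusted p = 0.00275), BR10 in TEAD4 (-0.55, adjusted p = 0.0226), and BR16 in none of them. Set directly against BR16, BR8 was lower in TEAD2 (-0.78, adjusted p = 0.00256), TEAD3 (-0.66, adjusted p = 0.0186) and TEAD4 (-0.55, adjusted p = 0.0192). Differences between these colonies tracked transcript GC (Spearman coefficient -0.601), and values of the TEAD genes with that trend removed are not given for this pair. TEAD1 had the highest FPKM of the 4 TEAD genes in every group. Of the 7 genes of the list of transcriptional effectors outside the 10 (3 TEAD and 4 VGLL genes), 4 passed the filter.

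LATS1 (ENSG00000131023, chromosome 6, 149658153 to 149718256, minus strand) and LATS2 (ENSG00000150457, chromosome 13, 20973032 to 21061547, minus strand) encode the kinases that phosphorylate YAP and TAZ, and their RNA did not move together. LATS1 had 7.02 and 7.56 FPKM in BR8, 3.44 and 3.26 in BR10, 5.19 and 5.16 in BR16, 5.65 and 5.89 in BLU667, and 6.13 and 8.09 in DMSO. BR10 was lowest, and the BR8 values lay inside the wide DMSO range. Against DMSO, LATS1 fell in BR10 (-0.89 ± 0.11, adjusted p = 0.000567) and BR16 (-0.38 ± 0.11, adjusted p = 0.0242) and was not called in BR8 (0.04 ± 0.11, adjusted p = 0.789) or BLU667 (-0.25 ± 0.11, adjusted p = 0.0874). BR10 also lay below BLU667 (-0.64, adjusted p = 0.0018), below BR16 (-0.51, adjusted p = 0.0086) and below BR8, whose log2 difference from BR10 was 0.93 (adjusted p = 0.000796). In the order BR8, DMSO, BLU667, BR16, BR10, only the last step was called. The LATS1 call in BR16 was lost without DMSO replicate 2 (-0.21, adjusted p = 0.0804) or without BR16 replicate 1 (adjusted p = 0.0936) or replicate 2 (adjusted p = 0.0994), and BLU667 was called below DMSO without DMSO replicate 1 (-0.43, adjusted p = 0.00347).

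LATS2, a TEAD target as well as a YAP and TAZ inhibitor, had 13.5 and 13.04 FPKM in BR8, 15.8 and 17.0 in BR10, 17.6 and 17.5 in BR16, 22.8 and 23.1 in BLU667, and 10.8 and 9.81 in DMSO. Each exposed library exceeded both DMSO libraries, and BLU667 exceeded all colonies. LATS2 rose over DMSO by 0.34 ± 0.076 in BR8 (adjusted p = 0.00629), 0.62 ± 0.076 in BR10 (adjusted p = 0.00045), 0.72 ± 0.076 in BR16 (adjusted p = 0.000135) and 1.09 ± 0.076 in BLU667 (adjusted p = 7.46e-06). It fell relative to BLU667 by 0.75, 0.46 and 0.37 in BR8, BR10 and BR16 (adjusted p = 6.87e-05, 0.00116 and 0.00326). In the order BLU667, BR16, BR10, BR8, DMSO, the step between BR16 and BR10 was the one not called (adjusted p = 0.349). With each library's GC trend removed, the LATS2 order among colonies changed: the change over DMSO became 0.64 in BR8, 0.84 in BR10 and 0.53 in BR16, and that of BR10 over BR16 became 0.31 (adjusted p = 0.00496). The BR8 call against DMSO was lost with only those 2 groups in the fit (adjusted p = 0.067), and the BR8 step below BR10 was lost when any colony library was left out (adjusted p = 0.181 without BR10 replicate 2).

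The ratio of LATS2 to LATS1 was 1.92 and 1.72 in BR8, 4.59 and 5.22 in BR10, 3.39 and 3.39 in BR16, 4.04 and 3.93 in BLU667, and 1.75 and 1.21 in DMSO. BR8 overlapped DMSO, while BR10, BR16 and BLU667 lay above it. Transcript GC is 59.3% for LATS2 and 44.6% for LATS1, and these ratios were not corrected for the GC trend between libraries. With that trend removed, LATS2 rose over DMSO by 0.64 in BR8 and 0.53 in BR16, and LATS1 in BR8 turned below DMSO. Whether BR8 alone stays near DMSO in this ratio was not tested with the trend removed. LATS2 exceeded LATS1 in each of the 10 libraries.

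Other genes of the kinase cascade changed in both directions. Of 24 such genes outside the 10, 22 were tested. In BLU667 against DMSO, 9 rose, 7 fell and 6 were not called, where 29.0% of all tested genes were called higher and 31.2% lower; the median was -0.07, against -0.01 over all tested genes. MAP4K5 (1.12 ± 0.11, adjusted p = 5.14e-05) rose and MAP4K4 (-1.08 ± 0.095, adjusted p = 2.7e-05) fell, both kinases that can act on LATS1 and LATS2. The scaffold gene FRMD6 (0.84 ± 0.099, adjusted p = 0.000147) and STK38 (0.84 ± 0.088, adjusted p = 7.74e-05), a kinase of the LATS family, rose. MAP4K5 and FRMD6 overlap other genes, the highest of them at 1.40 and 2.14 FPKM as group means. For the core kinase gene STK4 (MST1), BLU667 averaged 6.61 ± 0.70 FPKM and DMSO 9.81 ± 0.73 (SD, n = 2 each; -0.51, adjusted p = 0.00127), and its adaptor SAV1 rose (0.43, adjusted p = 0.00567). MOB1B, a LATS coactivator, rose (0.71, adjusted p = 0.000511) but overlaps a gene that reached a group mean of 20.4 FPKM, while STK3 (MST2; -0.16, adjusted p = 0.328) and MOB1A (-0.19, adjusted p = 0.246) were not called. Without DMSO replicate 1, STK3 (-0.37, adjusted p = 0.0154) and MOB1A (-0.42, adjusted p = 0.00368) were called lower.

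In the mean of the colonies against DMSO, 8 of those 22 genes rose, 2 fell and 12 were not called (median 0.05, against -0.03 over all tested genes), where 22.9% of all tested genes were called higher and 26.3% lower. With colony means as replicates 2 were called, where 11.1% of all tested genes were. FRMD6 (0.95 ± 0.081, adjusted p = 3.73e-05) and STK38 (0.85 ± 0.072, adjusted p = 3.56e-05) were higher and MAP4K4 (-0.84 ± 0.077, adjusted p = 5.76e-05) lower. The colonies differed in FRMD6, which was higher than DMSO in BR8 (1.64, adjusted p = 6.21e-06) and BR16 (1.08, adjusted p = 6.44e-05) and not called in BR10 (0.12, adjusted p = 0.363); BR10 was called lower than BR16 (-0.96, adjusted p = 0.000367). NF2, the gene of the scaffold merlin, averaged 21.6 ± 1.3, 16.8 ± 1.6 and 29.5 ± 0.63 FPKM in BR8, BR10 and BR16, 10.1 ± 0.98 in BLU667 and 11.2 ± 2.4 in DMSO (SD, n = 2 each), and rose in the colonies (0.93 ± 0.11, adjusted p = 0.000281) while BLU667 was not called (-0.13, adjusted p = 0.436; -0.33 and adjusted p = 0.0393 without DMSO replicate 2). With colony means as replicates, NF2 (adjusted p = 0.0583) and FRMD6 (adjusted p = 0.172) were not called. SAV1 was higher in the colonies (0.31, adjusted p = 0.013; adjusted p = 0.0899 without DMSO replicate 1), and STK4 (-0.15, adjusted p = 0.11), STK3 (-0.21, adjusted p = 0.145), MOB1A (0.02, adjusted p = 0.88) and MOB1B (0.15, adjusted p = 0.189) were not called. STK3 was called without DMSO replicate 1 (-0.42, adjusted p = 0.0076) and MOB1A without DMSO replicate 2 (0.25, adjusted p = 0.0257).

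WWC1 (ENSG00000113645, chromosome 5, 168291651 to 168472303, plus strand) encodes KIBRA, a scaffold that works with merlin to activate LATS1 and LATS2. It had 49.9 and 49.4 FPKM in BR8, 29.1 and 31.9 in BR10, 59.8 and 57.5 in BR16, 19.4 and 21.4 in BLU667, and 8.05 and 7.61 in DMSO. The 5 groups did not overlap anywhere. WWC1 rose over DMSO by 2.52 ± 0.082 in BR8 (adjusted p = 3.02e-07), 1.83 ± 0.082 in BR10 (adjusted p = 3.27e-06), 2.76 ± 0.082 in BR16 (adjusted p = 2.41e-07) and 1.28 ± 0.082 in BLU667 (adjusted p = 4.78e-06), which as ratios of mean FPKM were 6.34, 3.90, 7.49 and 2.60. Over BLU667 it rose by 1.25, 0.56 and 1.48 in BR8, BR10 and BR16 (adjusted p = 6.81e-06, 0.000663 and 4.04e-06). Each step of the order BR16, BR8, BR10, BLU667, DMSO was called. The step between BR8 and BR16 (-0.24, adjusted p = 0.0436) was lost without any one colony library (adjusted p = 0.191 without BR16 replicate 1) and with the GC trend removed (-0.14, adjusted p = 0.105). The paralog WWC3 averaged 8.59 ± 0.36, 7.37 ± 0.34 and 8.85 ± 0.29 FPKM in BR8, BR10 and BR16, 8.33 ± 0.55 in BLU667 and 5.77 ± 0.61 in DMSO (SD, n = 2 each), a smaller rise (0.45, adjusted p = 0.00133 in the colonies; 0.46, adjusted p = 0.00237 in BLU667). The paralog WWC2 rose by 0.31 in BLU667 (adjusted p = 0.00759; adjusted p = 0.0546 without BLU667 replicate 2) and by 0.18 in the mean of the colonies (adjusted p = 0.0377), a call lost without any one colony or DMSO library (adjusted p = 0.107 without DMSO replicate 1).

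**Figure D3:**
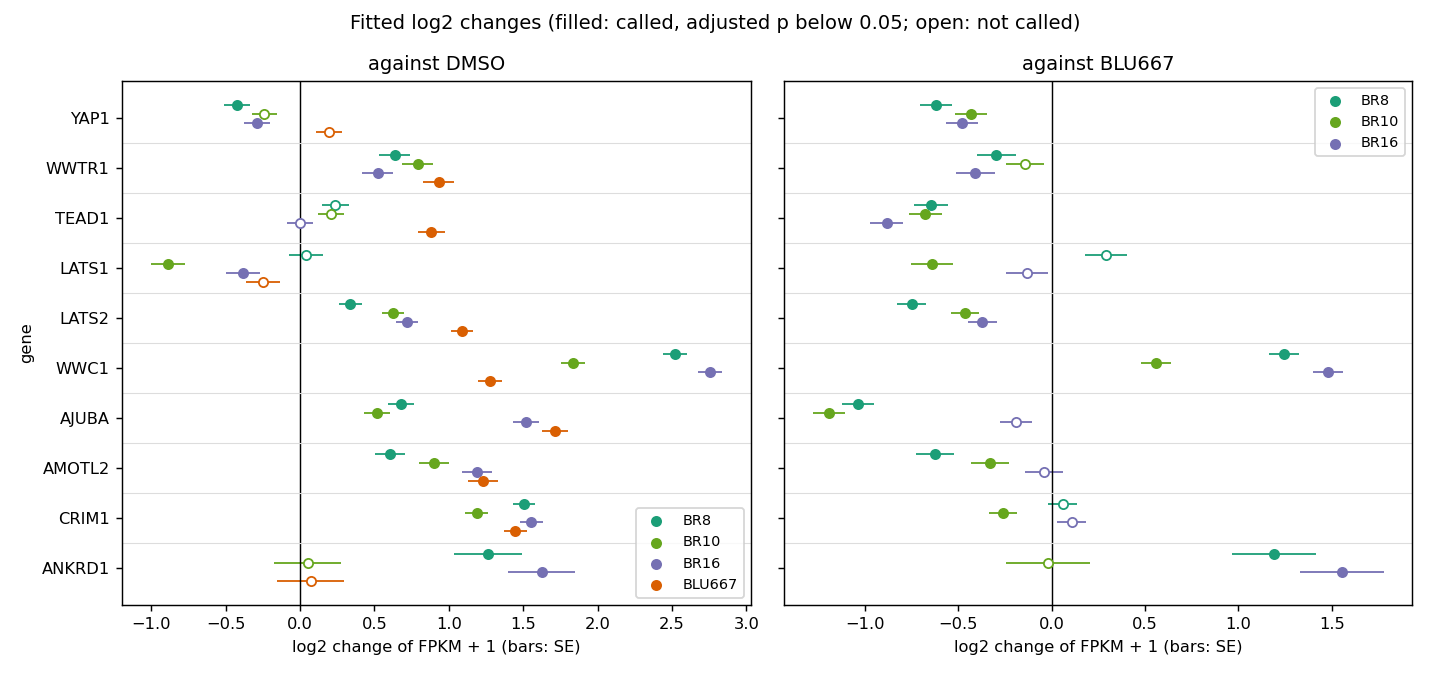
Log2 change of each of the 10 genes (rows) on the log2(FPKM + 1) scale for BR8, BR10, BR16 and BLU667 against DMSO (left) and for the colonies against BLU667 (right); bars are SE of the limma fit, filled points were called and open points were not. WWC1 is to the right of 0 in both panels, whereas TEAD1, LATS2 and YAP1 lie to the left of 0 for all 3 colonies in the right panel.

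AJUBA (ENSG00000129474, chromosome 14, 22971174 to 22982642, minus strand) encodes a LIM protein that binds and inhibits LATS kinases. It had 40.0 and 33.9 FPKM in BR8, 32.9 and 33.0 in BR10, 66.6 and 67.4 in BR16, 75.1 and 78.2 in BLU667, and 23.1 and 22.3 in DMSO. BR16 lay near BLU667, and BR8 and BR10 stood between those groups and DMSO. AJUBA rose over DMSO by 0.68 ± 0.088 in BR8 (adjusted p = 0.000377), 0.52 ± 0.088 in BR10 (adjusted p = 0.00225), 1.52 ± 0.088 in BR16 (adjusted p = 5.26e-06) and 1.71 ± 0.088 in BLU667 (adjusted p = 1.38e-06). It was lower than BLU667 in BR8 (-1.04, adjusted p = 2.58e-05) and BR10 (-1.19, adjusted p = 1.69e-05), whereas BR16 was not called (-0.19, adjusted p = 0.094). BR16 was higher than BR8 and BR10: the log2 differences were -0.85 for BR8 against BR16 (adjusted p = 0.000394) and -1.002 for BR10 against BR16 (adjusted p = 0.000175). In the order BLU667, BR16, BR8, BR10, DMSO, the steps at BR16 to BR8 and at BR10 to DMSO were called. With the GC trend removed, BR16 was called below BLU667 (-0.30, adjusted p = 0.0123), and without BR16 the mean change of the colonies over DMSO was 0.60, against 0.91 with it.

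AMOTL2 (ENSG00000114019, chromosome 3, 134355874 to 134375479, minus strand) encodes an angiomotin, a scaffold that holds YAP and TAZ at junctions and activates LATS kinases. Its level was 32.9 and 31.1 FPKM in BR8, 37.0 and 42.3 in BR10, 47.4 and 49.6 in BR16, 51.5 and 48.4 in BLU667, and 22.4 and 19.1 in DMSO. All exposed libraries exceeded DMSO, and BR16 overlapped BLU667. AMOTL2 rose over DMSO by 0.60 ± 0.10 in BR8 (adjusted p = 0.00149), 0.90 ± 0.10 in BR10 (adjusted p = 0.000312), 1.19 ± 0.10 in BR16 (adjusted p = 4.44e-05) and 1.23 ± 0.10 in BLU667 (adjusted p = 1.9e-05). Against BLU667 it was lower in BR8 (-0.63, adjusted p = 0.000946) and BR10 (-0.33, adjusted p = 0.0253) and not called in BR16 (-0.04, adjusted p = 0.75). In the order BLU667, BR16, BR10, BR8, DMSO, only the last step was called. MIR6827 and RPL39P5 overlap AMOTL2 on its own strand, with at most 6.30 FPKM as a group mean.

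Among the 10 genes AMOTL2 has the highest transcript GC, and its differences between colonies moved with the GC trend. With the trend removed, AMOTL2 rose over DMSO by 1.11 in BR8, 1.33 in BR10 and 0.93 in BR16. Its BR8 to BR16 difference then turned to 0.18 (adjusted p = 0.036; -0.59 and adjusted p = 0.00269 without that step), that of BR10 to BR16 turned to 0.40 (adjusted p = 0.00135), BR16 was called below BLU667 (-0.55, adjusted p = 7.46e-05) and BR10 was not (-0.14, adjusted p = 0.0561). The BR10 call against BLU667 was also lost without BR10 replicate 1 (-0.23, adjusted p = 0.165), BLU667 replicate 1 (adjusted p = 0.12) or BLU667 replicate 2 (adjusted p = 0.0534). The paralog AMOT averaged 3.60 ± 0.39, 6.29 ± 0.094 and 4.81 ± 0.87 FPKM in BR8, BR10 and BR16, 5.48 ± 0.51 in BLU667 and 2.90 ± 0.046 in DMSO (SD, n = 2 each), and rose in BLU667 (0.73, adjusted p = 0.00086) and in the mean of the colonies (0.57, adjusted p = 0.00164; adjusted p = 0.125 with colony means as replicates). AMOTL1, the other angiomotin gene, was not called in BLU667 (-0.14, adjusted p = 0.217) or in the mean of the colonies (-0.16, adjusted p = 0.124; -0.31 and adjusted p = 0.0236 without BR16), and was lower in BR8 alone (-0.42, adjusted p = 0.00567).

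Of 19 further genes of junctions, polarity and LATS or YAP binding, 17 were tested. In BLU667 against DMSO, 8 rose, 2 fell and 7 were not called, where 60.2% of all tested genes were called (29.0% higher, 31.2% lower); the median was 0.08, against -0.01 over all tested genes. The tight junction gene TJP1 (1.68 ± 0.10, adjusted p = 3.97e-06), the polarity gene LLGL2 (1.07 ± 0.15, adjusted p = 0.000403) and the atypical cadherin FAT4 (0.95 ± 0.076, adjusted p = 1.57e-05) rose, and the polarity scaffold SCRIB (-1.59 ± 0.22, adjusted p = 0.00033) fell. TJP1 overlaps other genes, one of which reached a group mean of 27.8 FPKM, so its value is uncertain. In the mean of the colonies against DMSO, 6 rose, 4 fell and 7 were not called (median 0.03, against -0.03), where 49.2% of all tested genes were called (22.9% higher, 26.3% lower). With colony means as replicates 5 were called, where 11.1% of all tested genes were. DLG1 (1.42 ± 0.064, adjusted p = 1.19e-06), PATJ (1.19 ± 0.065, adjusted p = 3.24e-06) and PARD3 (1.06 ± 0.081, adjusted p = 2.06e-05), all polarity scaffolds, were higher, and SCRIB was lower (-1.31 ± 0.18, adjusted p = 0.000481; adjusted p = 0.0635 with colony means as replicates) but was not called in BR16 alone (-0.56, adjusted p = 0.0647). The AJUBA relatives LIMD1 and WTIP were not called in the colonies (-0.02, adjusted p = 0.807, and 0.11, adjusted p = 0.377), and in BLU667 LIMD1 fell (-0.47, adjusted p = 0.00229) and WTIP was not called (0.08, adjusted p = 0.607).

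CRIM1 (ENSG00000150938, chromosome 2, 36355926 to 36551135, plus strand), a transmembrane protein gene and a YAP and TAZ target, was the highest of the 10 genes in the colonies and in BLU667. It had 173 and 174 FPKM in BR8, 140 and 137 in BR10, 174 and 184 in BR16, 167 and 165 in BLU667, and 57.5 and 63.2 in DMSO. Exposed libraries were all at least 137 FPKM, and the DMSO libraries at most 63.2. CRIM1 rose over DMSO by 1.51 ± 0.076 in BR8 (adjusted p = 2.49e-06), 1.19 ± 0.076 in BR10 (adjusted p = 1.87e-05), 1.55 ± 0.076 in BR16 (adjusted p = 2.49e-06) and 1.45 ± 0.076 in BLU667 (adjusted p = 1.65e-06). It was not called different from BLU667 in BR8 (0.06, adjusted p = 0.536) or BR16 (0.11, adjusted p = 0.259). BR10 was lower than BLU667 (-0.26, adjusted p = 0.0198), a call lost without any one library of those groups (adjusted p = 0.102 without BR10 replicate 2), and lower than BR16 (-0.37, adjusted p = 0.00621; adjusted p = 0.0613 without BR16 replicate 2). In the order BR16, BR8, BLU667, BR10, DMSO, the last pair of steps was called. FEZ2, on the other strand, overlaps CRIM1, and overlapping genes reached 6.61 FPKM at most as a group mean.

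ANKRD1 (ENSG00000148677, chromosome 10, 90912096 to 90921276, minus strand), which encodes a nuclear and sarcomeric ankyrin-repeat protein and is a standard YAP and TAZ reporter gene, was close to absent outside BR8 and BR16. Its levels were 1.03 and 2.34 FPKM in BR8, 0.188 and 0.0668 in BR10, 2.18 and 2.53 in BR16, 0.0574 and 0.233 in BLU667, and 0.109 and 0.0639 in DMSO. These rest on 36 and 78 reads in BR8, 6 and 3 in BR10, 70 and 89 in BR16, 2 and 8 in BLU667, and 4 and 2 in DMSO. The BR8 and BR16 libraries do not overlap the other 6, and the BR8 pair differs most between replicates in FPKM, though not relative to its mean. Per read in genes, the ratio to DMSO was 19.0 in BR8 (95% interval 8.45 to 52.8), 1.36 in BR10 (0.433 to 4.66), 26.1 in BR16 (11.7 to 72.1) and 1.65 in BLU667 (0.542 to 5.51), by exact binomial intervals on summed reads that cover counting error only. In the fit ANKRD1 was called higher than DMSO in BR8 (1.26 ± 0.23, adjusted p = 0.00201) and BR16 (1.63 ± 0.23, adjusted p = 0.000633) and not in BR10 (0.05 ± 0.23, adjusted p = 0.88) or BLU667 (0.07 ± 0.23, adjusted p = 0.803). These log2 sizes depend on the pseudocount: with 0.1 in place of 1 they were 3.17 in BR8 and 3.73 in BR16. In the order BR16, BR8, BLU667, BR10, DMSO, only the step from BR8 to BLU667 was called (1.19, adjusted p = 0.00219). Because ANKRD1 passed the filter through the libraries in which it is high, its calls are a description.

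Of 18 further YAP and TAZ target genes, all 18 were tested. PTPN14 is also in the list of the kinase cascade and is counted in both, as higher in BLU667 (0.45, adjusted p = 0.00127) and lower in the colonies (-0.44, adjusted p = 0.000664). In BLU667 against DMSO they divided evenly, with 9 higher and 9 lower, where 29.0% of all tested genes were called higher and 31.2% lower; the median was 0.06, against -0.01 over all tested genes. The 4 largest were the ectonucleotidase NT5E, which fell (-3.69 ± 0.17, adjusted p = 8.43e-07), and the kinase NUAK2 (2.54 ± 0.13, adjusted p = 1.62e-06), the ligand TGFB2 (2.36 ± 0.10, adjusted p = 6.29e-07) and the membrane repair gene MYOF (2.06 ± 0.088, adjusted p = 5.38e-07), which rose. With the 4 listed members counted in (LATS2, AMOTL2, CRIM1 and ANKRD1), 12 of 22 rose, 9 fell and 1 was not called, with a median of 0.64. In the mean of the colonies against DMSO, 11 of the 18 were higher, 4 lower and 3 not called (median 0.50, against -0.03), where 22.9% of all tested genes were called higher and 26.3% lower. With colony means as replicates 6 were called, where 11.1% of all tested genes were. NUAK2 (2.40 ± 0.11, adjusted p = 1.19e-06), CYR61 (CCN1; 2.12 ± 0.092, adjusted p = 9.39e-07) and the matrix gene CCDC80 (2.02 ± 0.074, adjusted p = 4.37e-07) were higher, and NT5E (-3.34 ± 0.14, adjusted p = 8e-07) was lower. NT5E averaged 8.33 ± 0.30, 20.6 ± 0.067 and 3.64 ± 0.072 FPKM in BR8, BR10 and BR16, 6.86 ± 2.2 in BLU667 and 98.7 ± 14 in DMSO (SD, n = 2 each). NUAK2 averaged 57.6 ± 2.6, 33.2 ± 0.83 and 52.0 ± 0.42 FPKM in BR8, BR10 and BR16, 51.2 ± 4.0 in BLU667 and 8.08 ± 1.9 in DMSO (SD, n = 2 each). CYR61, which encodes a matricellular protein, averaged 489 ± 38, 485 ± 3.2 and 627 ± 1.7 FPKM in BR8, BR10 and BR16, 231 ± 7.8 in BLU667 and 122 ± 19 in DMSO (SD, n = 2 each).

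**Figure D4:**
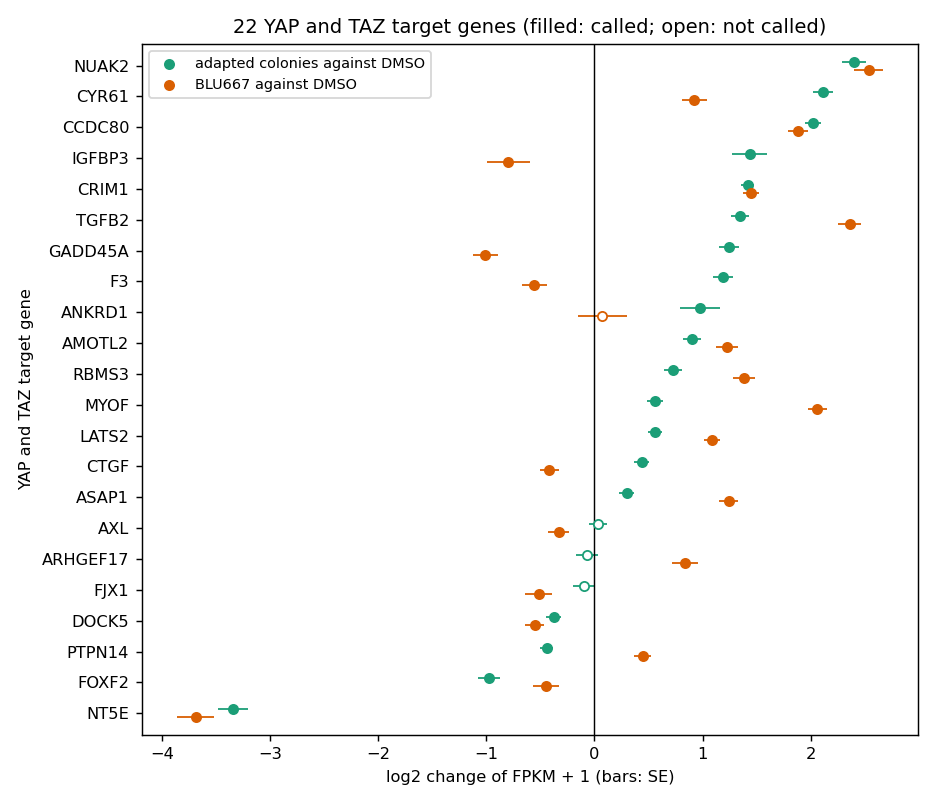
Log2 change on the log2(FPKM + 1) scale of 22 YAP and TAZ target genes (rows, ordered by the change in the colonies) in the mean of the adapted colonies against DMSO (green) and in BLU667 against DMSO (orange); bars are SE, filled points were called and open points were not. NUAK2, CCDC80 and CRIM1 lie to the right of 0 in both comparisons and NT5E far to the left in both; the comparisons share their DMSO libraries.

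Likeness of pattern was measured as Pearson's r of log2(FPKM + 1) with each tested gene over the 10 libraries, which share their groups. The genes most like YAP1 were MIR1244-2 (r = 0.986), a multicopy locus whose reads are uncertain, PAIP2 (r = 0.973) and STRN3 (r = 0.97). Those most like WWTR1 were NBEA (r = 0.992), SERTAD2 (r = 0.988) and GAB1 (r = 0.979). For ANKRD1 they were CSH2 (r = 0.966), CGB5 (r = 0.965), both of multigene families with near-identical copies, and STAP2 (r = 0.96). GAB1, an adaptor of receptor tyrosine kinases, had 1.94 and 1.47 FPKM in BR8, 1.99 and 2.16 in BR10, 1.56 and 1.29 in BR16, 2.31 and 2.47 in BLU667, and 0.528 and 0.806 in DMSO. STAP2, also an adaptor protein, had 4.22 and 3.35 FPKM in BR8, 0.0224 and 0.0159 in BR10, 5.23 and 6.07 in BR16, 0.0205 and 0.146 in BLU667, and 0.0390 and 0.0457 in DMSO. Like ANKRD1, STAP2 stood apart in the BR8 and BR16 libraries, which follows from its choice by likeness to ANKRD1.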

How the data were processed

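RNA of 10 libraries was measured. Per the labels' protocols, total RNA went through a GlobinClear kit into a non-directional NEB library; per the submitters' processing notes, STAR 2.5, HTSeq 0.6.1, CASAVA and DESeq2 (version 2) were used with GRCh38, and no annotation release is named. The authors deposited FPKM for 58735 genes in 10 columns, mapped to samples by title. FPKM times gene length gave whole reads (100.00% of values, tolerance 0.05), and totals of 15243703 to 21904245 reads; low genes such as ANKRD1 are limited by counting error.

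Of these genes, 13927 passed the filter (FPKM 1 or more in 2 or more libraries). limma 3.58.1 (R 4.3.3) fitted the 5 groups at once to log2(FPKM + 1), leaving 5 residual degrees of freedom, with the prior variance as a function of level. The 12 comparisons used two-sided p-values adjusted by Benjamini and Hochberg's method over all tested genes. The colonies were also compared as the mean of 3 colony means, whose SE reflects libraries and not colonies. Replicate numbers recur across groups, but deviations of same-numbered libraries correlated between -0.163 and 0.109, so the numbers were not taken as pairs. The series design calls the 2 libraries of a group biological replicates without naming separate cultures, and p-values measure the spread between these libraries.

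All 10 genes were named whatever their values. Of every other list, up to 4 called genes with the largest change against DMSO in BLU667 and in the colonies were named, with TEAD2 to TEAD4, STK3, STK4, SAV1, MOB1A, MOB1B, NF2, AMOT, AMOTL1, WWC2, WWC3, LIMD1 and WTIP whatever their values, and the 3 genes most like YAP1, WWTR1 and ANKRD1. The genes, lists and tests were chosen with earlier results of these data known. Alternatives were pseudocounts of 0.1 and 0.25, no filter, an FPKM minimum of 5, quantile normalization, median-of-ratios rescaling, voom on recovered reads, a replicate block, only the groups compared, each library left out, colony means as 3 replicates, and the colonies without BR16. A loess correction for transcript GC in every library (span 0.3) and a fit with no variance trend were chosen after seeing the data. Promoter windows came from RefSeq. Plots used matplotlib 3.10.9 under Python 3.11.15.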

Additional observations from a re-analysis of the deposited data

Results flagged for a closer look

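For 7 of the 10 genes the change over DMSO differed between colonies, by the fitted difference between the colonies themselves (limma, adjusted over all tested genes). Of all tested genes, 22.8% were called for BR8 against BR10, 48.6% for BR8 against BR16 and 43.1% for BR10 against BR16. The share called in at least 1 of these pairs was not counted, so the 7 cannot be set against all tested genes. The value given is the largest called difference, in log2 units. LATS1 differed by 0.93 between BR8 and BR10. WWC1 differed by -0.92, AJUBA by -1.002, ANKRD1 by -1.57 and CRIM1 by -0.37 for BR10 against BR16. ANKRD1 passed the filter only through BR8 and BR16, so its value here is a description. LATS2 differed by -0.38 and AMOTL2 by -0.59 for BR8 against BR16, and these 2 turned sign with the GC trend removed (0.11 and 0.18).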

How the results depend on the processing

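Of the counts of called genes, those against DMSO for BLU667 (7 to 8), BR8 (7 to 9), BR10 (7 to 8) and BR16 (7 to 9) and those against BLU667 for BR8 (7 to 9), BR10 (6 to 9) and BR16 (5 to 8) stayed within 1.5 times over the 21 alternatives run. With colony means as 3 replicates, the mean of the colonies gave 3 called against DMSO, in place of 9, and 4 against BLU667, in place of 8. The share of all tested genes called fell alongside, to 11.1% in place of 49.2% and to 26.3% in place of 61.1%. Between colonies, the count of 5 in each pair moved when 1 library was left out, as did the share of all tested genes. With the GC trend removed, BR8 against BR16 gave 3 (all tested genes 35.2%, in place of 48.6%). With only those groups in the fit, BR10 against BR16 gave 8 (all tested genes 57.1%, in place of 43.1%). A replicate block gave 7 called for BLU667 against DMSO. For the mean of the colonies it gave 9 against DMSO and 8 against BLU667. Of all tested genes, the block called 58.5%, 46.7% and 59.3% in these comparisons. Among the 10 genes it ended the calls of LATS2 for BR8 against BR10 (adjusted p = 0.0534) and WWC1 for BR8 against BR16 (adjusted p = 0.0683) and no other. No label ties replicate numbers across groups. A minimum of 5 FPKM removed ANKRD1 and so gave no value for it.

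Signs turned for these differences, and the cause was not tested. With quantile normalization, ANKRD1 became -0.0367 for BLU667 against DMSO and -0.0826 for BR10 against DMSO, TEAD1 0.0389 for BR16 against DMSO and -0.0298 for BR8 against BR10, and NF2 0.0240, MOB1A 0.0065 and WTIP -0.0192 for BLU667 against DMSO, and LIMD1 0.0095 for the colonies against DMSO. TEAD1 for BR16 against DMSO was 0.0199 with median-of-ratios rescaling, 0.0212 with voom and 0.0579 with the GC trend removed. With the GC trend removed, LATS1 became -0.0776 for BR8 against DMSO and 0.0105 for BR16 against BLU667, ANKRD1 -0.0133 for BR10 against DMSO, CRIM1 -0.0071 for BR8 against BLU667, YAP1 -0.0904, LATS2 0.31 and AMOTL2 0.40 for BR10 against BR16, LATS2 0.11 and AMOTL2 0.18 for BR8 against BR16, and TEAD3 0.0317 and MOB1A -0.0299 for the colonies against DMSO. Without BR16, STK4 became 0.0158 and WTIP -0.1463 for the colonies against DMSO. Leaving out 1 library in turn gave -0.0388 to 0.1824 for ANKRD1 in BLU667 against DMSO (turned without BLU667 replicate 2), -0.1342 to 0.2158 for LATS1 in BR8 against DMSO (turned without BR8 replicate 2 or DMSO replicate 1), -0.0260 to 0.1287 for ANKRD1 in BR10 against DMSO (turned without BR10 replicate 1), -0.0971 to 0.0951 for TEAD1 in BR16 against DMSO (turned without BR16 replicate 2 or DMSO replicate 2). It also gave -0.1311 to 0.0901 for ANKRD1 in BR10 against BLU667 (turned without BLU667 replicate 2 or BR10 replicate 2), -0.0856 to 0.0033 for AMOTL2 in BR16 against BLU667 (turned without BLU667 replicate 1), -0.0215 to 0.1199 for YAP1 in BR10 against BR16 (turned without BR10 replicate 1), -0.3340 to 0.0691 for NF2 in BLU667 against DMSO (turned without DMSO replicate 1). The range was -0.3028 to 0.0668 for TEAD2 in the colonies against DMSO (turned without DMSO replicate 1), -0.3593 to 0.1302 for TEAD3 in the colonies against DMSO (turned without DMSO replicate 1). Leaving out a DMSO library also turned these: for BLU667 against DMSO, MOB1A ranged from -0.4198 to 0.0322, STK3 from -0.3707 to 0.0493 and WTIP from -0.0494 to 0.2063 (each turned without DMSO replicate 2). For the colonies against DMSO, LIMD1 ranged from -0.1005 to 0.0507 and MOB1A from -0.2024 to 0.2496 (turned without DMSO replicate 1), and WTIP from -0.0132 to 0.2425 (turned without DMSO replicate 2). The planned edgeR test was not run, since the table holds FPKM. With 2 libraries a group, small differences may go undetected.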
